A study of Mus musculus with 8 samples.

Results

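The Trim family was described in mouse embryonic fibroblasts, mesenchymal cells grown out of embryos. Members were all genes whose symbol is Trim followed by a number, with or without a trailing letter, among probe sets annotated to a single gene symbol. Where a gene had several probe sets, the one with the largest mean signal across the 8 arrays stood for it. The rule found 39 Trim genes among 12393 genes. Total RNA had been hybridised to 8 one-colour Affymetrix arrays, and the deposited values are signal intensities.

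The cells came from a C57BL/6 x 129Ola background and had 4 genotypes. They were wild type (WT, Tbk1+/+ Ikbke+/+), Tbk1-/- Ikbke+/+ (below Tbk1-/-), Tbk1+/+ Ikbke-/- (below Ikbke-/-), or Tbk1-/- Ikbke-/-. The products of Tbk1 and Ikbke are kinases of one family that phosphorylate Irf3 and Irf7, transcription factors of the interferon genes. Each genotype was either mock transfected or transfected with B-DNA, a synthetic alternating A and T duplex, and RNA was taken 4 h later. Every combination of genotype and transfection has a single array, so a ratio of B-DNA over mock within a genotype has no replicate check and is given without a p-value. Whether cultures came from separate or pooled embryos is not given in the sources used here.

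Trim proteins carry a tripartite motif made of a RING finger, B-box zinc fingers and a coiled coil, followed by a C-terminal domain that differs between subfamilies. The RING finger makes most of them E3 ubiquitin ligases, which attach ubiquitin to chosen proteins. Many members with a C-terminal PRY-SPRY domain restrict viruses or tune innate sensing and are themselves interferon-stimulated, while other members act in chromatin, muscle, neurons or membranes. Many interferon-stimulated genes carry the interferon-stimulated response element (ISRE) in their promoters.

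Arrays were first brought to a common level. Ratios used 122 in place of any smaller signal (the floor), which makes a fold over such a signal a minimum, written "at least". The words "counted as higher" and "counted as lower" stand for a 2-fold difference or more in which the larger signal was 244 or above. The floor was reached by 33 of the 39 Trim genes on some array and by 23 on all 8. The 6 genes under the floor on every array were Trim6, Trim7, Trim15, Trim31, Trim54 and Trim69. Trim12a and Trim30d reached the floor only on B-DNA arrays of cells with Tbk1, and Trim34a only on arrays of cells with Tbk1, so their place among the 33 rests on the arrays where they are high.

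A few facts of the whole series bear on what follows. Scaling factors ranged from 1.96 to 3.58, and scaling moved the B-DNA over mock log2 ratios by 0.40 in WT, 0.18 in Tbk1-/-, 0.23 in Ikbke-/- and -0.19 in Tbk1-/- Ikbke-/- cells. The Tbk1 probe set read from 472 to 989 on the arrays labelled Tbk1+/+ and from 226 to 390 on those labelled Tbk1-/-. The Ikbke probe set was under the floor on all 8 arrays (12.8 to 42.2), so the Ikbke labels could not be checked in this way. Fibroblast markers were strong on every array, with 9 or 10 of 10 genes at 244 or more. Pdgfra among them was counted as lower in WT and Ikbke-/- cells (log2 ratios -1.61 and -1.23) and passed the Tbk1 test given further on with a higher ratio without Tbk1 (limma adjusted p = 0.042). Lum was under the floor on both Tbk1-/- arrays (117 and 87.1) and read from 1459.7 to 5773 on the others. Dcn ran from 557 on the Tbk1-/- mock array to 14062 on the Tbk1-/- Ikbke-/- mock array. The epithelial marker Krt19 read 995 and 901 on the Tbk1-/- arrays and was under the floor on the others, while Epcam and Cdh1 were under it on every array. Of 18 macrophage and leukocyte markers, 14 reached 244 on the WT mock array, 11 on the WT B-DNA array and 1 or 2 on each other array. Their summed signal was 21318 and 5918 on the WT arrays and between 1577 and 1935 on the others. The complement genes C1qa, C1qb and C1qc and the pan-leukocyte gene Ptprc were under the floor on all arrays of the other genotypes. In bulk RNA, fewer cells of a type and less RNA per cell cannot be told apart.

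Promoters are shown first, because a few Trim genes had high ratios together after B-DNA. Sequences are those of RefSeq on GRCm38.p6 and cover 250 bases before and 50 after each start of transcription, and 31 of the 39 Trim genes had an entry. The ISRE core was searched on both strands as GAAA, any 2 bases, and GAAA again, with overlapping matches allowed. The test given further on called 5 Trim genes with a lower ratio without Tbk1. Of these, 4 held the core (Trim21, Trim26, Trim30a and Trim34a). Trim34a entered that test only through arrays with Tbk1, so its call there is no support. Trim30d, Trim12a and Trim2 did not pass that test and also held the core, so 7 of the 31 Trim genes did. Trim30d and Trim12a reached the floor only on B-DNA arrays with Tbk1, so they are no support either. Of 27025 genes in the table, 3.99% held it. Of the 19 Trim genes with an entry that were measured and not 2-fold higher in any genotype, 2 held it (Trim12a and Trim2). A further core, TTC, any 3 bases and GAA (the GAS core), was held by 0 of the 5 genes that passed that test. It was held by 3 of the 31 Trim genes (9.68%) and by 9.55% of the 27025 genes. The following 30-base stretches are written 5′ to 3′ on the strand of the gene, to show how alike the elements are. Matches to the ISRE core are in capitals, and the match of Trim2 is not shown.
Trim21, chr7:102565447-102565476, minus strand: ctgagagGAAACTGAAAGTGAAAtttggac
Trim26, chr17:36836979-36837008, plus strand: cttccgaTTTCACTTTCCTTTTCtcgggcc
Trim30a, chr7:104465210-104465239, minus strand: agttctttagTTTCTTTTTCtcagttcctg
Trim30d, chr7:104507871-104507900, minus strand: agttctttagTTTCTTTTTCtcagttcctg
Trim34a, chr7:104244457-104244486, plus strand: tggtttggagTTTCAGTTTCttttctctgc
Trim12a, chr7:104315466-104315495, minus strand: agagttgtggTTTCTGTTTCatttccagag

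Trim21 and Trim26 each held a pair of overlapping matches, read on the given strand in Trim21 and on the other strand in Trim26. Trim30a has a pair of annotated starts with a match, and the stretch shown for it was letter for letter that of Trim30d. At its other start (chr7:104446104-104446133, minus strand) the core was the same, with some different letters before it. The window of Trim25 held no match, which says only that these letters are not in this window. A match is a description of the sequence and not a measured binding site.

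To show the wider context in neighbouring paralogues, the 250 bases before the starts used for the stretches above are given for Trim30a and Trim30d. The ISRE core is again in capitals. Aligned with each other, the 250-base sequences were identical in 227 of 255 columns.
Trim30a, chr7:104465194-104465443, minus strand: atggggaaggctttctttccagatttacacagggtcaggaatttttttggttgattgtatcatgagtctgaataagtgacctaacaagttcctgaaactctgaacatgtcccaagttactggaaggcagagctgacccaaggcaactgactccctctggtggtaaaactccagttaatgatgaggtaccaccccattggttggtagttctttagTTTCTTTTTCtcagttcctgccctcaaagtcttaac
Trim30d, chr7:104507850-104508099, minus strand: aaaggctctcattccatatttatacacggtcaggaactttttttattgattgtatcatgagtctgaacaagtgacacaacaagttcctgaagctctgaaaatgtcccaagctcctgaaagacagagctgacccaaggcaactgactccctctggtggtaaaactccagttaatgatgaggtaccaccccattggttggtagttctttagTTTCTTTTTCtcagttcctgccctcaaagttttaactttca

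**Figure D1:**
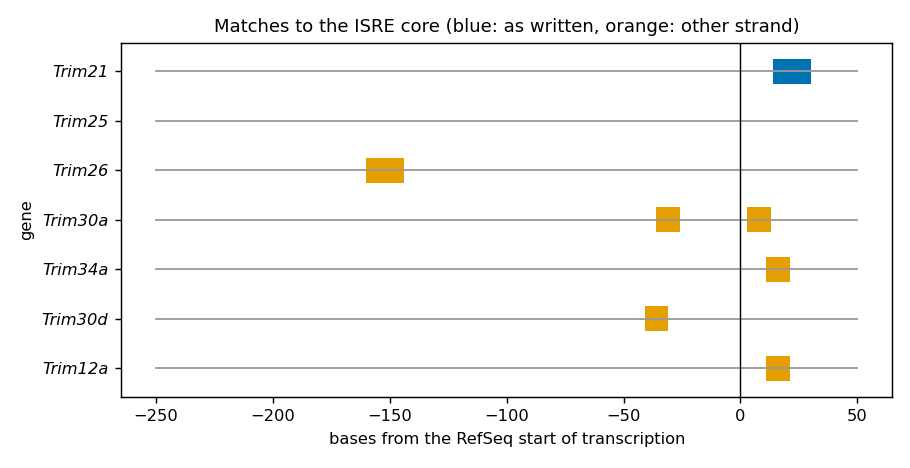
Positions of the ISRE core in the promoter windows of 7 Trim genes, in bases from the RefSeq start of transcription (blue as written, orange on the other strand). Trim30a has a pair of annotated starts, drawn on the same line, and Trim25 has no match.

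In the genotypes that kept Tbk1, a small group of Trim genes read several-fold higher on the B-DNA than on the mock array. In WT cells 5 of the 33 measured Trim genes were counted as higher (Trim21, Trim25, Trim26, Trim30a and Trim34a), against 3.27% of 9626 genes. In Ikbke-/- cells 6 were counted as higher, the same 5 and Trim30d, against 3.55%. In Tbk1-/- cells none was, against 0.291%, and in Tbk1-/- Ikbke-/- cells none was, against 0.540%. Both WT and Ikbke-/- cells had those 5 genes higher, against 2.39% of all genes, and the 5 were counted in neither genotype without Tbk1, a pattern held by 2.26% of all genes. No Trim gene was counted as lower in any genotype, where 1.89% of all genes were lower in WT, 0.405% in Tbk1-/-, 1.64% in Ikbke-/- and 0.748% in Tbk1-/- Ikbke-/- cells. Among probe sets that did not stand for their gene, a pair of Trim37 probe sets was 2-fold lower in Ikbke-/- cells (291 to 121 and 249 to 119), while the probe set used for Trim37 read 284 and 246. The median log2 ratio over the 33 genes was 0 in WT, Tbk1-/- and Ikbke-/- cells and 0.0065 in Tbk1-/- Ikbke-/- cells, and over all genes tested it was 0 in each. A gene under the floor on both arrays of a pair has a ratio of exactly 0, so a median of 0 does not measure an absence of change.

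Trim21 is a cytosolic receptor for antibody-coated virus and a ubiquitin ligase. It read 321 on the mock and 3073 on the B-DNA array of WT cells, 517 and 4698 in Ikbke-/-, 255 and 230 in Tbk1-/-, and 241 and 272 in Tbk1-/- Ikbke-/- cells. The B-DNA arrays of the genotypes with Tbk1 stood far above the 6 other arrays, and those 6 lay between 230 and 517. The log2 ratios were 3.26 in WT and 3.18 in Ikbke-/- cells, against -0.15 and 0.17 in Tbk1-/- and Tbk1-/- Ikbke-/- cells. A further Trim21 probe set gave 2.78 and 2.95 with Tbk1 and -0.53 and -0.09 without it.

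Trim25 is the ligase that attaches ubiquitin to the RNA sensor RIG-I. Its signal was 755 and 4989 in WT, 528 and 6299 in Ikbke-/-, 416 and 453 in Tbk1-/-, and 175 and 160.4 in Tbk1-/- Ikbke-/- cells. The ratios with Tbk1 were 6.61-fold in WT and 11.9-fold in Ikbke-/- cells. Without Tbk1 they were 1.09-fold and 0.916-fold. The other probe sets of Trim25 had WT log2 ratios of 3.01 and 2.93.

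Trim30a, a PRY-SPRY member known as a brake on NF-kB signalling, had its highest signal on the Ikbke-/- B-DNA array. It read 193 and 1767 in WT, 271 and 5088 in Ikbke-/-, 227 and 163 in Tbk1-/-, and 134 and 197 in Tbk1-/- Ikbke-/- cells. The B-DNA signal in Ikbke-/- cells was thus above that in WT cells, while the mock signals lay between 134 and 271. The fold was 9.15 in WT and 18.8 in Ikbke-/- cells, and a further probe set gave at least 10.2-fold and 19.7-fold.

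Trim26, a ligase encoded among the genes of the major histocompatibility complex, had smaller ratios. Its signal was 341 and 1597 in WT, 399 and 1601 in Ikbke-/-, 379 and 457 in Tbk1-/-, and 339.7 and 341 in Tbk1-/- Ikbke-/- cells. The mock arrays lay close to each other, and the B-DNA arrays with Tbk1 were nearly equal. The log2 ratios were 2.23 and 2.00 with Tbk1 and 0.27 and 0.01 without it, and a further probe set gave 1.58 and 1.83 with Tbk1 (at least, since its mock signals there were below the floor).

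Trim34a, a relative of the antiretroviral factor Trim5, lay under the floor on all 4 arrays without Tbk1. It read 87.9 and 638 in WT and 147 and 1036 in Ikbke-/- cells, against 73.3 and 76.0 in Tbk1-/- and 69.4 and 13.2 in Tbk1-/- Ikbke-/- cells. The ratio was at least 5.22-fold in WT and 7.04-fold in Ikbke-/- cells. A further Trim34a probe set was under the floor on every array, and the mean over both probe sets gave WT and Ikbke-/- log2 ratios of 1.19 and 1.41.

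Trim30d, the neighbouring paralogue of Trim30a, was counted in Ikbke-/- cells. It read 4.9 and 217 in WT, 5.3 and 828 in Ikbke-/-, 16.3 and 10.4 in Tbk1-/-, and 8.9 and 16.6 in Tbk1-/- Ikbke-/- cells. Its WT B-DNA signal was above the floor and under 244, and its ratio was at least 1.78-fold in WT and at least 6.77-fold in Ikbke-/- cells. Trim12a read 45.2 and 97.2 in WT, 4.4 and 223 in Ikbke-/-, 29.8 and 49.6 in Tbk1-/-, and 3.6 and 30.1 in Tbk1-/- Ikbke-/- cells, and it was not counted in any genotype. All but its Ikbke-/- B-DNA value were under the floor. With a floor at the 20th percentile Trim12a and Trim30d were counted as higher in both genotypes with Tbk1, with log2 ratios of 1.10 and 2.51 in WT and 2.54 and 4.44 in Ikbke-/- cells. The probe sets of Trim12a, Trim30a, Trim30d and Trim34a may also detect near-identical paralogues, and probe sets listed with several Trim symbols (4) were not used.

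Of the 18 leukocyte markers, 12 were under the floor on both Ikbke-/- arrays, while 14 and 11 reached 244 on the WT arrays, and their part in the WT ratios was not tested.

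**Figure D2:**
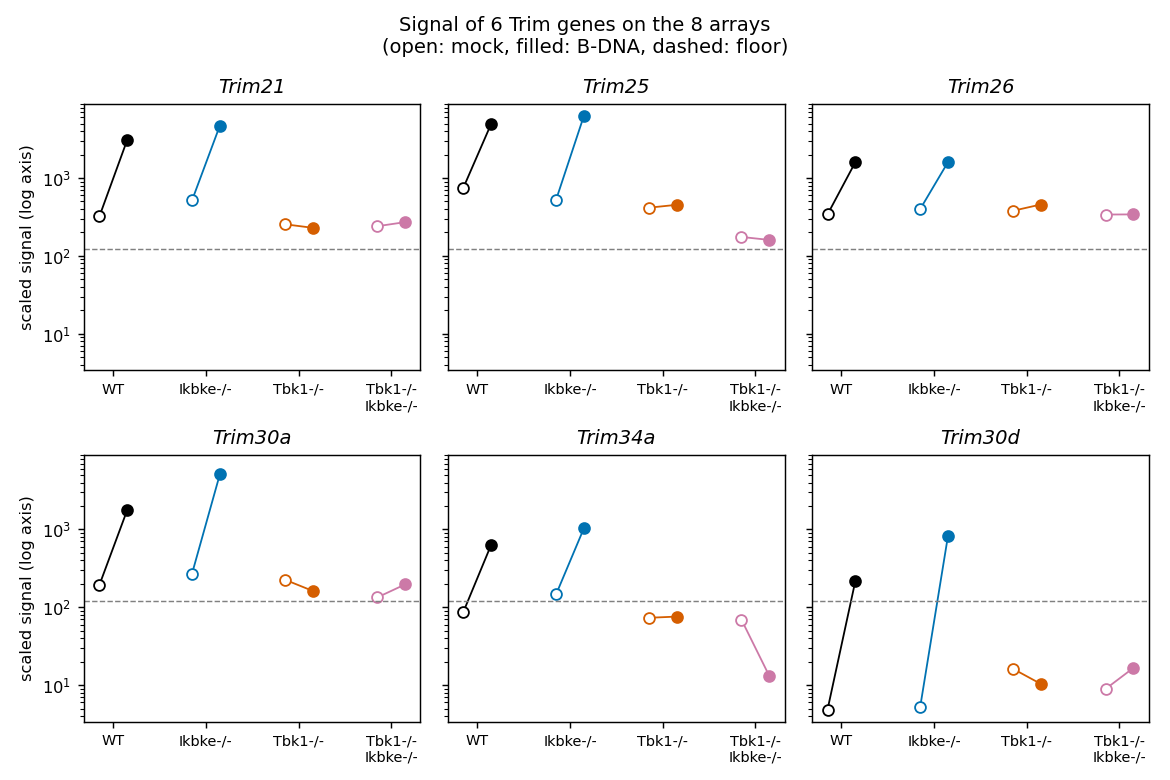
Scaled signal (log axis) of 6 Trim genes on the mock (open) and B-DNA (filled) array of each genotype, with the floor of 122 dashed. In the WT and Ikbke-/- pairs the B-DNA array is the higher one for each gene, and in the pairs without Tbk1 no gene with both values above the floor differs 2-fold.

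These genes lie in a few places of the genome. In the RefSeq gene order of chromosome 7, Trim6, Trim34a, Trim5, Trim12a, Trim34b and Trim12c follow each other directly, and Trim30b, Trim30c, Trim30a and Trim30d follow each other close by. Of the 5 members with a probe set in that stretch, Trim34a and Trim30a were higher in both genotypes with Tbk1, Trim30d was higher in Ikbke-/- cells, Trim12a was counted in none, and Trim6 was under the floor on every array. Trim26 is followed on chromosome 17 by Trim15, Trim10, Trim40 and Trim31. Of these, Trim15 and Trim31 were under the floor on every array, and Trim10 read between 55.9 and 157, near or under the floor on all arrays.

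**Figure D3:**
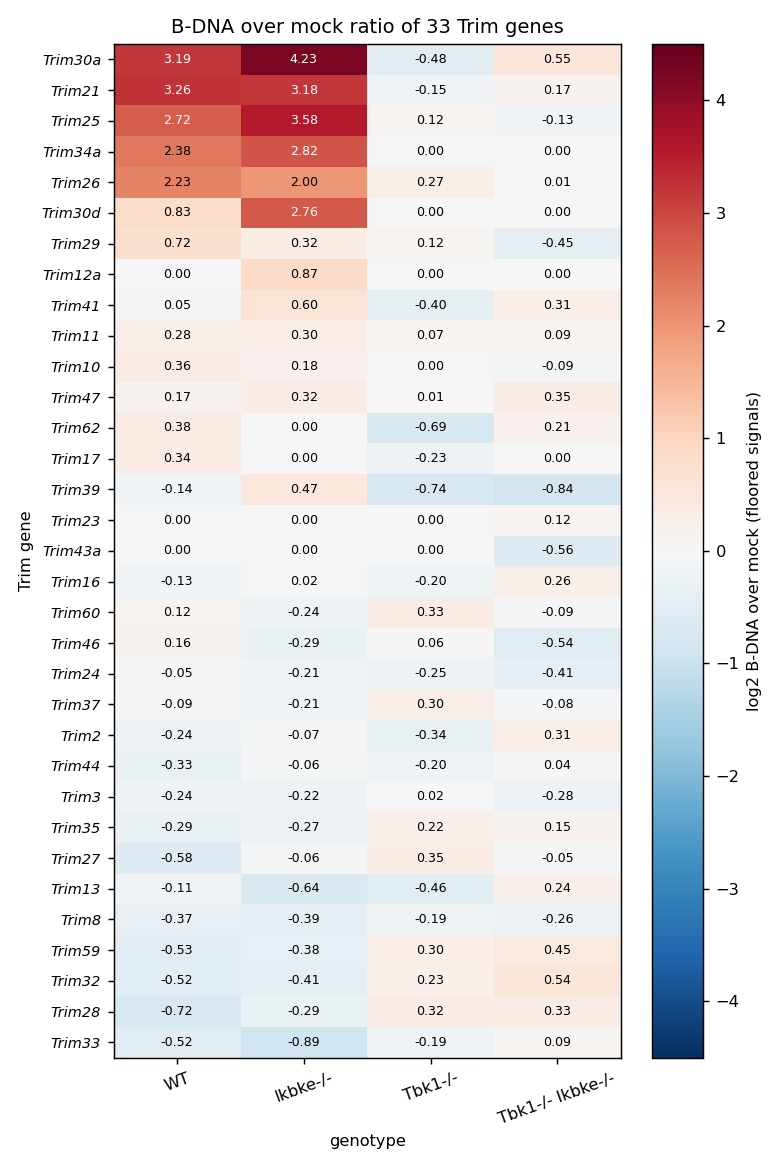
Log2 ratio of B-DNA over mock for the 33 measured Trim genes (rows) in the 4 genotypes (columns), ordered by the mean of the WT and Ikbke-/- ratios. The 6 genes at the top reach 0.83 to 4.23 in the columns with Tbk1, and all values in the columns without Tbk1 lie between -0.84 and 0.55.

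Whether the B-DNA ratio differed with Tbk1 was tested over the 4 pairs of arrays, with genotype as a block and terms for treatment by Tbk1 and treatment by Ikbke (limma, 2-sided, Benjamini-Hochberg over 9626 genes, 1 residual degree of freedom moderated across genes with 5.34 prior degrees of freedom). The log2 ratio was lower in the pairs without Tbk1 for 5 of the 33 Trim genes, against 1.83% of all genes, and higher for none, against 0.239%. Trim30a had a difference of -3.67 (SE 0.23, limma adjusted p = 9.37e-04). Trim21 had -3.21 (SE 0.24, limma adjusted p = 0.00198) and Trim25 -3.15 (SE 0.32, limma adjusted p = 0.00615). Trim34a had -2.60 (SE 0.24, limma adjusted p = 0.00515), but it entered the fit only through arrays with Tbk1, and both its ratios without Tbk1 were fixed at 0 by the floor, so its p-value is no support. With the mean over its probe sets the difference was -1.30 and did not pass (limma adjusted p = 0.076). Trim26 had -1.98 (SE 0.23, limma adjusted p = 0.0109). Trim30d had -1.79 (SE 0.45, limma adjusted p = 0.13) and did not pass. It passed with no floor and log2(value + 16) (-4.35, limma adjusted p = 0.034) and with a variance trend (limma adjusted p = 0.047), and is subject to the same limit as Trim34a.

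These calls rest on all 4 pairs and on the filter on low genes: with no such filter, or with additive genotype factors, limma called none of the 33 or 39 genes fitted. With a pair left out, the treatment by Ikbke term had to be dropped. That smaller model called 4 of the 5 with all pairs (Trim30a had an adjusted p of 0.072 by limma) and none of them without the WT, the Tbk1-/-, the Ikbke-/- or the Tbk1-/- Ikbke-/- pair (limma adjusted p 0.28 to 0.40). Without the WT pair, on whose arrays the leukocyte markers were present, the differences were -4.19 for Trim30a, -3.17 for Trim21, -3.58 for Trim25, -2.82 for Trim34a and -1.87 for Trim26. With a floor at the 20th percentile, or none, Trim25, Trim26 and Trim34a did not pass. The labels do not say whether arrays stand for separate cultures. Behind the p-values of the full model lies the departure of the ratios of the 4 pairs from a sum of Tbk1 and Ikbke effects, moderated across genes. It is not a spread between arrays of the same combination, and it may be technical.

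**Figure D4:**
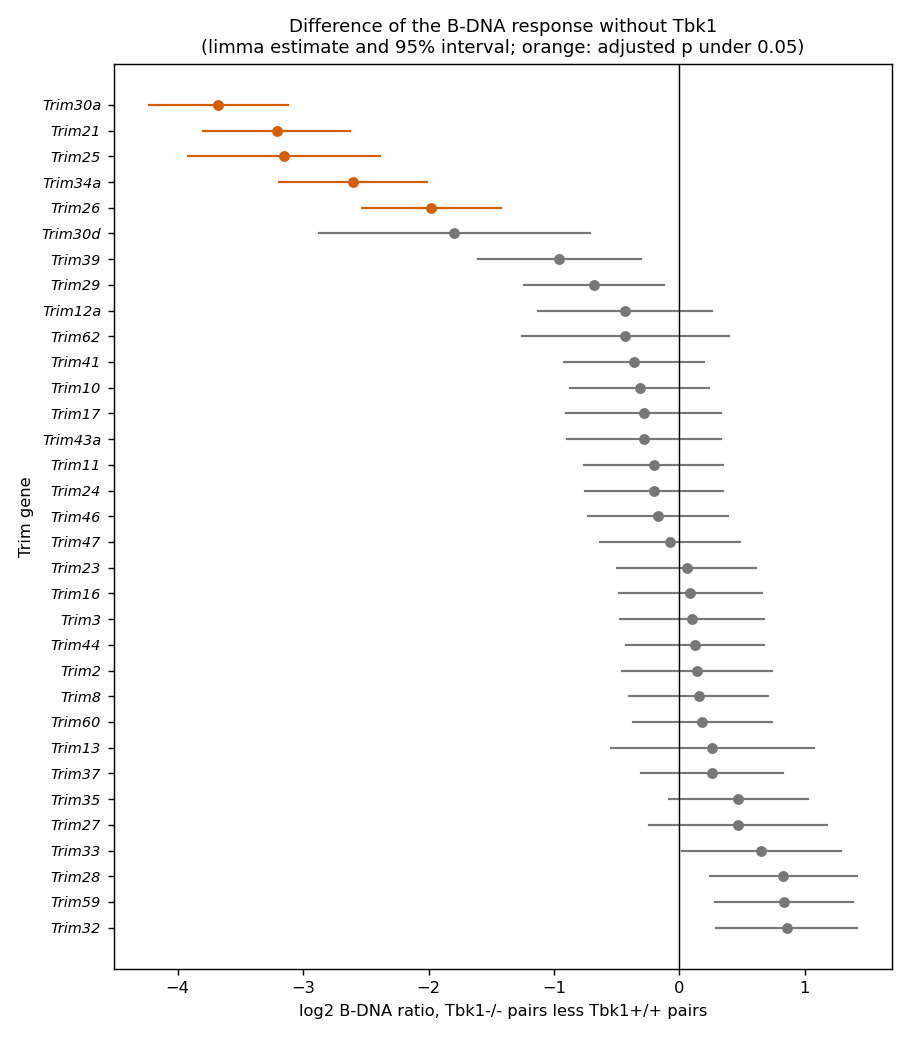
Difference of the B-DNA log2 ratio, Tbk1-/- pairs less Tbk1+/+ pairs, for the 33 measured Trim genes (points) with 95% intervals from limma (lines). The 5 genes with an adjusted p under 0.05 (orange) lie between -3.67 and -1.98, and the highest estimate is 0.85 for Trim32.

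No Trim gene passed the test for a dependence on Ikbke, against 0% of all genes (limma, lowest adjusted p 0.98). At an unadjusted p under 0.05 there were 2 Trim genes, Trim30a and Trim41, and 435 genes in all. The difference of the log2 ratios, Ikbke-/- pairs less Ikbke+/+ pairs, was 1.03 for Trim30a (95% interval 0.48 to 1.59), 0.30 for Trim25 (-0.46 to 1.07), 0.12 for Trim21 (-0.46 to 0.71) and -0.24 for Trim26 (-0.80 to 0.31). Xist, the RNA of the inactive X chromosome, read 2950.1 or more on the Ikbke+/+ arrays and 209 or less on the Ikbke-/- arrays, so an effect of Ikbke and one of embryo sex cannot be told apart.

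The average response over the 4 genotypes called no Trim gene in either direction, against 0% of all genes (limma with genotype as a block, lowest adjusted p 0.61). At an unadjusted p under 0.05 there was 1 Trim gene, Trim8, and 761 genes in all. Trim8, known to bind Socs1, read 475 and 368 in WT, 439 and 335 in Ikbke-/-, 554 and 484 in Tbk1-/-, and 385 and 322 in Tbk1-/- Ikbke-/- cells. Each B-DNA array lay under its mock array, with a mean difference of -0.30 (SE 0.08, limma adjusted p = 0.61). Further Trim8 probe sets did not share this, with WT log2 ratios of 0.15 and 0.55.

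The remaining 27 measured Trim genes were those not counted as higher in any genotype, so that choice limits the top of their range. Their ratios ran from -0.72 (Trim28) to 0.72 (Trim29) in WT cells. In Ikbke-/- cells they ran from -0.89 (Trim33) to at least 0.87 (Trim12a, whose mock signal was under the floor). They ran from -0.74 (Trim39) to 0.35 (Trim27) in Tbk1-/-, and from -0.84 (Trim39) to 0.54 (Trim32) in Tbk1-/- Ikbke-/- cells. Among the chromatin members, Trim28, the corepressor that KRAB zinc finger proteins recruit to retroelements, read 2303 and 1399.5 in WT, 2141 and 1753 in Ikbke-/-, 2044 and 2551 in Tbk1-/-, and 2936 and 3690.4 in Tbk1-/- Ikbke-/- cells. Its B-DNA array was the lower one in both pairs with Tbk1 and the higher one in both pairs without it. The difference was 0.83 (SE 0.24, limma adjusted p = 0.18) and did not pass, and without further scaling the WT ratio of Trim28 was -1.12.

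Trim33, a nuclear relative of Trim28 that acts on Smad proteins, read 997 and 695 in WT, 1019 and 551 in Ikbke-/-, 1005 and 884 in Tbk1-/-, and 1096 and 1163.5 in Tbk1-/- Ikbke-/- cells. Its Tbk1 difference of 0.65 did not pass (limma adjusted p = 0.29). Trim24, the third of these nuclear members, read 244 and 237 in WT and 340 and 294 in Ikbke-/- cells, against 240.0 and 202 in Tbk1-/- and 701 and 527 in Tbk1-/- Ikbke-/- cells. Both arrays of the last genotype thus lay above the other 6.

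Trim32, a ligase with NHL repeats that is mutated in a form of limb-girdle muscular dystrophy, read 548.5 and 382 in WT, 633 and 476 in Ikbke-/-, 492 and 579 in Tbk1-/-, and 471 and 686 in Tbk1-/- Ikbke-/- cells. The membrane-anchored Trim59 read 347 and 241 in WT, 198 and 152 in Ikbke-/-, 327 and 403 in Tbk1-/-, and 660.5 and 905 in Tbk1-/- Ikbke-/- cells. Both had the same sign pattern as Trim28, with Tbk1 differences of 0.85 and 0.83 that did not pass (limma adjusted p = 0.15 and 0.16). Ratios below 0 in both pairs with Tbk1 and above 0 in both pairs without it were seen in 4 Trim genes (Trim28, Trim32, Trim35 and Trim59) and in 10.9% of all genes tested, and nothing about the family is read from it.

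Several other members had ratios close to 0, unlike Trim39 (-0.14 in WT, 0.47 in Ikbke-/-, -0.74 in Tbk1-/- and -0.84 in Tbk1-/- Ikbke-/- cells). The NHL member Trim3 had ratios between -0.28 and 0.02, and Trim2, its close relative, between -0.34 and 0.31. Further Trim2 probe sets reached -0.44 in WT and 0.44 in Tbk1-/- cells, where the probe set used gave -0.24 and -0.34. Trim44, which has no RING finger, had ratios between -0.33 and 0.04. Trim47 read 1160 and 1309 in WT, 1310.2 and 1638 in Ikbke-/-, 1601 and 1608 in Tbk1-/-, and 680.5 and 865 in Tbk1-/- Ikbke-/- cells, lowest in cells lacking both kinases. Its ratios lay between 0.01 and 0.35, and those of Trim11 between 0.07 and 0.30. Trim39 read 298 and 179 in Tbk1-/- and 219.6 and 122.4 in Tbk1-/- Ikbke-/- cells, against 224.5 and 204 in WT and 253 and 351 in Ikbke-/- cells, and its Tbk1 difference of -0.96 did not pass (limma adjusted p = 0.16).

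On the mock arrays, 3 Trim genes were 2-fold apart from WT in cells lacking both kinases, and none in cells lacking 1 of them. On the Tbk1-/- mock array the log2 difference from the WT mock array ran from -0.86 (Trim25) to 0.82 (Trim13), and on the Ikbke-/- mock array from -0.81 (Trim59) to 0.69 (Trim21), with no Trim gene 2-fold apart. The background was 2.23% higher and 3.33% lower in Tbk1-/- cells, and 2.31% higher and 3.13% lower in Ikbke-/- cells. On the Tbk1-/- Ikbke-/- mock array Trim24 was 2.87-fold higher (5.56% of all genes were higher), while Trim25 was 4.31-fold and Trim16 2.07-fold lower (5.51% were lower). These shares are near the background.

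The differences on that array were also read by other probe sets. The further Trim25 probe sets read 509 and 265 on the WT mock array and 197 and 90.5 on the Tbk1-/- Ikbke-/- mock array. A further Trim24 probe set read 121 against 259, and a further Trim16 probe set 323 against 162. In a fit of the 4 mock arrays with additive Tbk1 and Ikbke factors, limma called none of 31 Trim genes for Tbk1, against 0% of all genes. At an unadjusted p under 0.05 there was 1 Trim gene, Trim25 (difference -1.23, limma adjusted p = 0.9997), and 208 genes in all. The leukocyte markers differ between the WT mock array and the others as given above, and their part in these levels was not tested.

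Trim-type genes that carry another name were read beside the family. Pml, also called Trim19, organises nuclear bodies and is interferon-stimulated. It read 237 and 2289 in WT, 106 and 2097 in Ikbke-/-, 117 and 196 in Tbk1-/-, and 643 and 589 in Tbk1-/- Ikbke-/- cells. Its mock signals in Ikbke-/- and Tbk1-/- cells were under the floor, so those 2 ratios are minimum values. The log2 ratio of Pml was lower in the pairs without Tbk1 by a difference of -3.41 (SE 0.40, limma adjusted p = 0.0111). That fit used the floor in place of those mock signals. The related genes Mid1, Mid2, Mefv and Cmya5 had WT ratios of 0.30 or less and did not pass.

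Known partners of Trim proteins were read from lists. Of 8 measured genes of PML nuclear bodies, 2 passed with a lower ratio in the pairs without Tbk1 (1.83% of all genes did) and none with a higher one (0.239%). They were Pml and Daxx, a histone chaperone of these bodies that went from 1057 to 5415 in WT and from 952 to 5400.5 in Ikbke-/- cells (difference -2.17). Sp100, another component, was at least 2.29-fold higher in Ikbke-/- cells and did not pass (difference -0.91, limma adjusted p = 0.16). Of 14 measured enzymes of ubiquitin and Isg15 conjugation, 2 passed with a lower ratio, against 1.83% of all genes. They were Usp18 (-5.60), which removes Isg15, and Uba7 (-2.64), which activates it, while the ubiquitin-conjugating enzymes had WT ratios of 0.32 or less. Of 12 measured sensing and signalling partners, 3 passed with a lower ratio, against 1.83% of all genes, namely the RNA sensor Ifih1 (-6.05), Irf7 (-4.80) and Sting1 (-1.51). None of the 9 measured partners of Trim28 in heterochromatin passed, and their WT ratios lay between -0.24 and 0.15.

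The Trim ratios were set beside 19 interferon-stimulated genes of other families. Those had WT log2 ratios from 1.44 (Irf9) to 6.09 (Ifit2), with a median of 5.20 and with minimum values where a mock signal was under the floor, and Ikbke-/- ratios from 2.09 (Irf9) to 7.55 (Rsad2). The 5 Trim genes counted in WT cells lay between 2.23 and 3.26, in the lower part of that range. All 19 passed with a lower ratio in the pairs without Tbk1 (limma, 1.83% of all genes). Some of them, such as Mx1 and Oasl2, reached the floor only on B-DNA arrays of cells with Tbk1. Their ratios without Tbk1 were fixed at 0 by the floor, so their p-values are no support. Outside the genotypes with Tbk1, Cxcl10 was counted as higher in Tbk1-/- cells (log2 ratio 1.02) and Oasl1 as lower in Tbk1-/- Ikbke-/- cells (at most -1.04). This list was chosen for its known response and is given as a scale, not as a test.

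**Figure D5:**
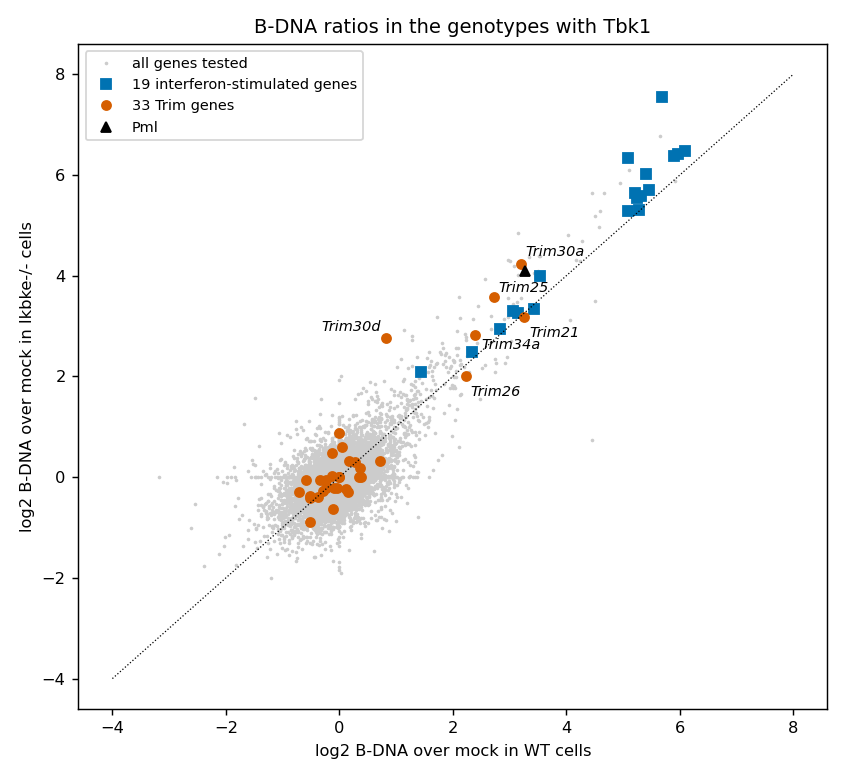
Log2 B-DNA over mock ratio in WT cells (horizontal) and Ikbke-/- cells (vertical) for all 9626 genes tested (grey), 19 interferon-stimulated genes (blue squares), 33 Trim genes (orange) and Pml (black). The 5 Trim genes counted in both genotypes lie apart from the other Trim genes, and Trim30d lies at 0.83 and 2.76, where the floor limits both values.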

How the data were processed

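The deposited values are MAS5 signal intensities, linear and 1 per probe set, per the labels. The design text also mentions GeneSpring, without its role, and an array type other than the one these probe sets are from. Neither a scaling target nor detection calls are known here. After 64 controls were dropped from 22690 probe sets, 20380 had 1 symbol, 691 several and 1555 none. Old symbols were replaced by way of gene IDs (20351 found in RefSeq, GRCm38.p6).

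Arrays were multiplied to a 2% trimmed mean of 500, smaller values were raised to the 40th percentile over all arrays (122), and log2 was taken. limma 3.58.1 in R 4.3.3 (lmFit, eBayes, Benjamini-Hochberg, threshold 0.05) was fitted to 9626 genes that reached the floor on any array, and to 9169 for the mock arrays alone. The fits were tested on simulated data with a set spread and no floor, which does not test how the floor or the filter on low genes affects the calls. Promoters were aligned with Biopython 1.88. With 1 array per combination, precision is limited by the array number.

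The members and lists were chosen with earlier results of these data known. The rule named members called by limma, counted in any pair, 2-fold apart on mock arrays or among the 3 highest in mean signal, and up to 4 genes per list called or higher in WT. Other members, probe sets and list genes were named after their values were seen. Alternatives were other scalings, floors, fold thresholds, filters, probe set rules and models, and leaving out each genotype pair.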

Additional observations from a re-analysis of the deposited data

Results flagged for a closer look

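The B-DNA log2 ratio of 5 Trim genes differed between the pairs without and with Tbk1 by a test of the difference itself (the treatment by Tbk1 term in limma, adjusted over 9626 genes). The differences were -3.67 for Trim30a, -3.21 for Trim21, -3.15 for Trim25, -2.60 for Trim34a and -1.98 for Trim26. Trim34a entered the fit only through arrays with Tbk1. Its ratios without Tbk1 were fixed at 0 by the floor, so its p-value is no support. Each group held a single array per combination, so no array could be compared with others of its own group.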

How the results depend on the processing

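The counts of Trim genes higher in WT and Ikbke-/- cells stayed within 1.5 times under every alternative tried, and the Tbk1 differences of the 5 called genes and of Trim30d kept their sign. Over all counts and alternatives, 136 values stayed within 1.5 times, 9 went above and 8 below. Most of the 136 were counts of 0 that stayed 0, so this tally says little about stability. The 8 below all belonged to the count of Trim genes with a lower ratio without Tbk1. The count of Trim genes with a lower ratio without Tbk1, 5 as reported, was 2 with a floor at the 20th percentile, 3 with no floor and log2(value + 16) (Trim21, Trim30a and Trim30d), 0 with no filter on low genes, 0 with additive genotype factors, 4 with the mean over probe sets (without Trim34a), 6 with a variance trend (with Trim30d), and between 0 and 0 when each genotype pair was left out. Over all genes, limma called 176 lower and 23 higher as reported, 47 and 1 with the low floor, 65 and 4 with no floor, 0 and 0 with no filter or additive factors, 100 and 18 with no further scaling, 93 and 4 with the mean over probe sets, and 99 and 5 without the Ikbke term. The number higher was 10 with median scaling, 60 with a floor at the 60th percentile, 83 over genes above the floor on all arrays and 53 with a variance trend. The mock fit called 6 lower with no floor, and 4 lower and 1 higher over genes above the floor on all arrays. Without further scaling, 1 Trim gene was lower in WT (Trim28) and 1 in Ikbke-/- cells (Trim33). The low floor added Trim12a and Trim30d as higher in WT, and Trim12a and Trim31 in Ikbke-/- cells. With it, 1 was lower in WT (Trim43a), 1 in Ikbke-/- (Trim17) and 4 in Tbk1-/- Ikbke-/- cells (Trim6, Trim7, Trim10 and Trim43a), and 2 were higher in Tbk1-/- cells (Trim15 and Trim31). At 1.5-fold, 1 was lower in WT (Trim28), 2 in Ikbke-/- (Trim13 and Trim33) and 1 in Tbk1-/- cells (Trim39). The cause of these changes was not tested. The low floor takes in more Trim genes (37 fitted, 33 as reported) and also lowers the signal needed for a count. No paired analysis by replicate number was possible because each group has 1 array, and genotype is a block in the fits. Genes under the floor on mock arrays have only lower bounds for their ratios.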
